A study of Mus musculus with 12 samples.

Results

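The hnRNP A/B family was followed through loss of one of its members, Hnrnpa0, in PUER cells. The family was taken as 7 genes, Hnrnpa0, Hnrnpa1, Hnrnpa2b1, Hnrnpa3, Hnrnpab, Hnrnpd and Hnrnpdl, and every array probe that the scanner output names after one of them, in the current or the older Hnrp spelling, was included. This gave 7 of the 27670 gene names and 21 of the 41174 probes of the array: 2 for Hnrnpa0 and 19 for its 6 paralogues (4 each for Hnrnpa1, Hnrnpa3 and Hnrnpab, 3 for Hnrnpdl, and 2 each for Hnrnpa2b1 and Hnrnpd). The members and the further gene lists below were chosen with earlier results of these data known.

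PUER is a mouse myeloid line that lacks the transcription factor PU.1 and carries PU.1 fused to a hormone-binding domain of the estrogen receptor. All 12 cultures therefore shared the PU.1-null background and the fusion, grew in IL-3, and were sorted for the GFP of a retroviral vector. The 4 groups were cells with the Hnrnpa0 short hairpin RNA (shRNA) vector before and 24 h after 2 nM 4-hydroxytamoxifen (4-OHT), which activates the fusion, and cells with the control vector before and 24 h after it. Each group had 3 one-colour arrays (replicates A to C). The design used separate clones for each vector, so p-values measure the spread between clones of 1 line. The progenitor markers Kit, Mpo, Elane, Myb and Csf2rb were well above background on all 12 arrays and Cd34 on none. Csf1r and Ptprc, a macrophage receptor and CD45, were well above background on all 6 arrays after 4-OHT and on none of the 6 before it. The erythroid factor Gata1, the fibroblast genes Col1a1 and Pdgfra, Cd3g of T cells and Ms4a1 of B cells were well above background on no array.

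Proteins of the hnRNP A/B family bind nascent RNA in the nucleus through paired RNA recognition motifs, package it, and influence the choice of splice sites. Hnrnpa1 and Hnrnpa2b1 encode the abundant core proteins of these particles, and Hnrnpa3 a close relative that also binds RNA trafficking signals. Hnrnpd (AUF1) binds AU-rich elements of unstable mRNAs, and Hnrnpab and Hnrnpdl are its near relatives. The hnRNP A0 protein also binds AU-rich elements and is a substrate of the kinase MK2 in stimulated macrophages. Members of RNA-binding families often regulate one another's transcripts, and the question put to the arrays was whether any paralogue was higher where Hnrnpa0 was lower.

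Codons for the first part of the RNP1 motif, the conserved RNA-binding core of the RNA recognition motif, were searched for. Of the 21 probes, 2 lie over such codons, against 0.0219% of all 41174 probes (9 probes). They are shown because the first reads the knocked-down transcript itself and the second the same motif in a paralogue. Capitals mark the RNP1 codons that were searched for, which are not the whole motif.
Hnrnpa0 A_52_P625431: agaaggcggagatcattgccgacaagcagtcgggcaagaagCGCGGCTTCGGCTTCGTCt
Hnrnpdl A_52_P292693: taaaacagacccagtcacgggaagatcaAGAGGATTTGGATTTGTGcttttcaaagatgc
The array design places the first at chr13:57220223-57220282 and the second at chr5:99252610-99252669, both on the minus strand of mouse build mm7. The other Hnrnpa0 probe, A_51_P517423, lies at chr13:57219687-57219746. Neither Hnrnpa0 probe shares a run of 14 or more bases with any other probe of the array, whereas the Hnrnpdl probe shares a run of 24 bases with a probe of the locus LOC636685. Probe A_51_P443482 of Hnrnpa3 shares 19 bases with a probe of LOC674254. Probe A_52_P232433, named for Hnrnpa1, is placed on chromosome 9, whereas the Hnrnpa1 gene lies on chromosome 15.

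All 21 probes were well above background on all 12 arrays, and the limit to their measurement lay at the bright end. Levels are given as log2 intensity relative to the 75th percentile of the array. That percentile lay between 1817 and 2583 intensity units on the shRNA arrays after 4-OHT and between 1556 and 2042 on the control arrays after it, and between 1565 and 2029 on the shRNA arrays before 4-OHT and between 1196 and 1884 on the control arrays before it. On 3 probes the spot was saturated on all 12 arrays: A_51_P272617 of Hnrnpa3, and A_51_P205953 and A_52_P20966 of Hnrnpab. Their intensity moved only between 57650 and 76890 units over the 12 arrays, in ranges that were nearly the same in every group. Another 4 were saturated in part: A_52_P339966 of Hnrnpa3 on 11 arrays, A_51_P400784 of Hnrnpa1 on 10, A_51_P419981 of Hnrnpa2b1 on 7 and A_52_P313080 of Hnrnpab on 5. The other 14 probes were never saturated. By construction, the relative level of a spot with constant intensity is lower where the percentile is higher. The shRNA arrays exceeded the control arrays in mean log2 percentile by 0.19 before 4-OHT and by 0.37 after it. For a probe saturated on every array of both groups compared, the difference drawn in the plots and counted in the medians over all 18 paralogue probes is not a measured change, and none is given in the text.

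The targeted gene was measured first. Hnrnpa0 fell to 34.3% of its control level before 4-OHT and to 23.3% after it on its brighter probe. Before 4-OHT, probe A_51_P517423 read 1.93, 1.57 and 1.00 in shRNA replicates A, B and C, against 3.11, 3.06 and 2.98 in the control replicates. After 4-OHT it read 0.56, 0.65 and 0.46 in shRNA cells, against 2.60, 2.63 and 2.73 in control cells. The groups did not overlap at either time, and replicate C of the shRNA cells before 4-OHT, hybridised on another slide than A and B, was the lowest of its group. Replicate C was also the lowest of the shRNA cells after 4-OHT, where all replicates shared 1 slide. The differences were -1.54 (SE 0.18) before 4-OHT and -2.10 (SE 0.18) after it, with adjusted p = 0.0137 and 0.00597 in limma over the 22364 probes tested. Without control replicate B or C or shRNA replicate B of the arrays before 4-OHT, the difference before 4-OHT lay between -1.58 and -1.54 and missed the threshold. In bulk RNA, fewer cells with the transcript and less of it in each cell cannot be told apart.

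The second probe, over the RNP1 codons shown above, gave the same order. Before 4-OHT, A_52_P625431 read -0.15, -0.53 and -0.98 in shRNA cells, against 0.99, 0.77 and 0.70 in control cells. After 4-OHT it read -1.46, -1.24 and -1.53 in shRNA cells, against 0.42, 0.55 and 0.61 in control cells. Its differences were -1.37 (adjusted p = 0.0198 in limma) and -1.94 (adjusted p = 0.00597), and its remaining level was 38.6% before and 26.1% after 4-OHT. Averaged over both times, the differences were -1.82 and -1.66, and an exact two-sided permutation test of the vector within each time gave p = 0.005 for either probe, the smallest that its 400 relabellings allow. Before 4-OHT, 0.362% of all probes tested passed the threshold of an adjusted p of 0.05, after it 16.9%, and averaged over both times 29.2%.

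**Figure D1:**
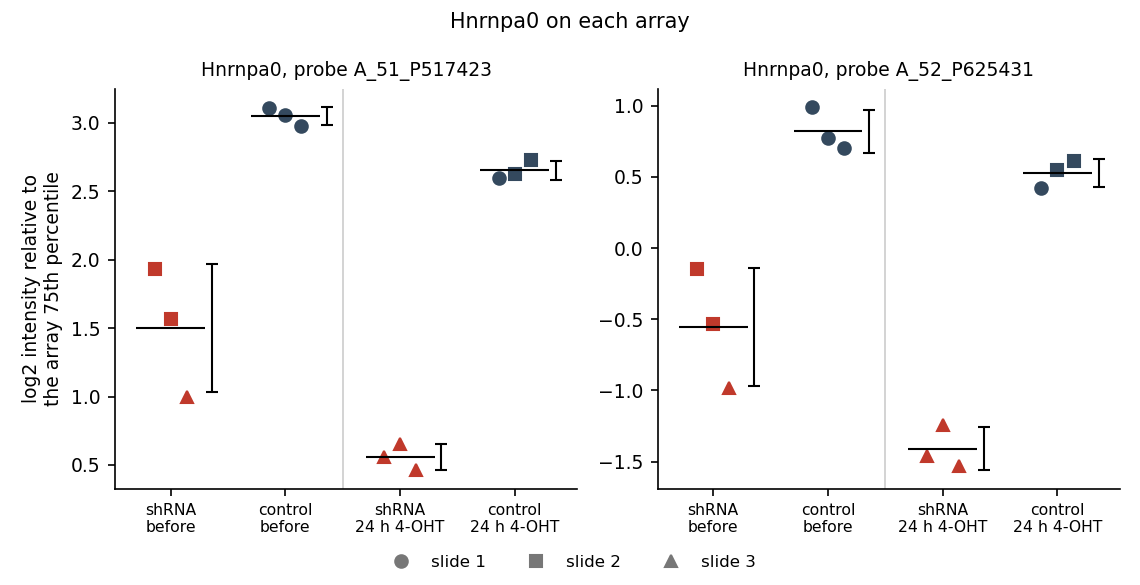
Log2 level of the 2 Hnrnpa0 probes on each array, relative to the 75th percentile of the array, with shRNA cells left of control cells at each time; marker shapes give the slide, lines the group mean and bars the SD (n = 3). On both probes every shRNA array lies below every control array, and the shRNA arrays before 4-OHT spread most (SD 0.47 on probe A_51_P517423).

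The arrays sat on 3 slides of 4, and in neither treatment did a slide hold both vectors. On slide 3 were 4 shRNA arrays, replicate C before 4-OHT and all 3 after it. The other 2 shRNA arrays shared slide 2 with control replicates B and C after 4-OHT. Slide 1 had 4 control arrays, all 3 before 4-OHT and replicate A after it. Each slide also had its own scan. With slide as a fixed block, which ties the groups together through the treatment, the Hnrnpa0 difference on A_51_P517423 was -1.38 at both times, and it no longer passed (adjusted p = 0.11 before and 0.104 after 4-OHT in limma). With slide as a random block it was -1.57 before (adjusted p = 0.069), -1.82 after (adjusted p = 0.0719) and -1.69 on average (adjusted p = 0.0111). With the fixed block 0 of 22364 probes passed before 4-OHT, 1 after it and 0 averaged over both times.

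None of the paralogues was called higher before 4-OHT, and after 4-OHT 1 probe of Hnrnpdl was. Of the 19 paralogue probes 18 were tested, since A_52_P636482 of Hnrnpa2b1 lost 3 arrays to spots that the scanner software marked as outliers. Before 4-OHT, 0 of 18 passed in either direction in limma, where 0.152% of all probes passed as higher and 0.21% as lower. At an unadjusted p under 0.05 in limma, 1 was higher and 7 were lower, where 2342 and 2875 of all 22364 probes were. After 4-OHT, 1 was higher and 3 were lower, against 8.14% and 8.8% of all probes. Without any 1 of control replicates A and B and shRNA replicates B and C of the arrays after 4-OHT, 0 passed after 4-OHT in either direction. Averaged over both times, 1 was higher and 7 were lower, against 13.4% and 15.8%. The groups did not overlap for 1 higher and 8 lower paralogue probes before 4-OHT, against 13.3% and 19.5% of all probes, and for 2 higher and 7 lower after it, against 19% and 20.4%. At both times in the same direction they did not overlap for 0 higher and 6 lower, against 7.82% and 11%. The median difference of the 18 probes was -0.18 before, -0.23 after and -0.21 on average, where all probes had medians of -0.021, -0.026 and -0.021.

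Restricting the view to probes that were never saturated moved these medians. For those 11 paralogue probes they were -0.17 before, -0.10 after and -0.12 on average, and 5 of the 7 lower calls on average were among them. Under quantile normalization, the median of all 18 was -0.11 before and -0.07 after 4-OHT. The upper end of the 95% interval of the difference, which bounds a rise, reached at most 0.40 before 4-OHT among these 11 probes (A_51_P443482 of Hnrnpa3) and at most 0.54 after it (A_52_P146848 of Hnrnpdl). With slide as a fixed block, upper ends among the same 11 probes reached at most 0.56 before and 0.57 after 4-OHT. Not all of these values are adjusted for slide. Outlier spots on A_52_P232433, A_51_P226373 and A_51_P443482 removed the only array that linked a group to the other slides.

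**Figure D2:**
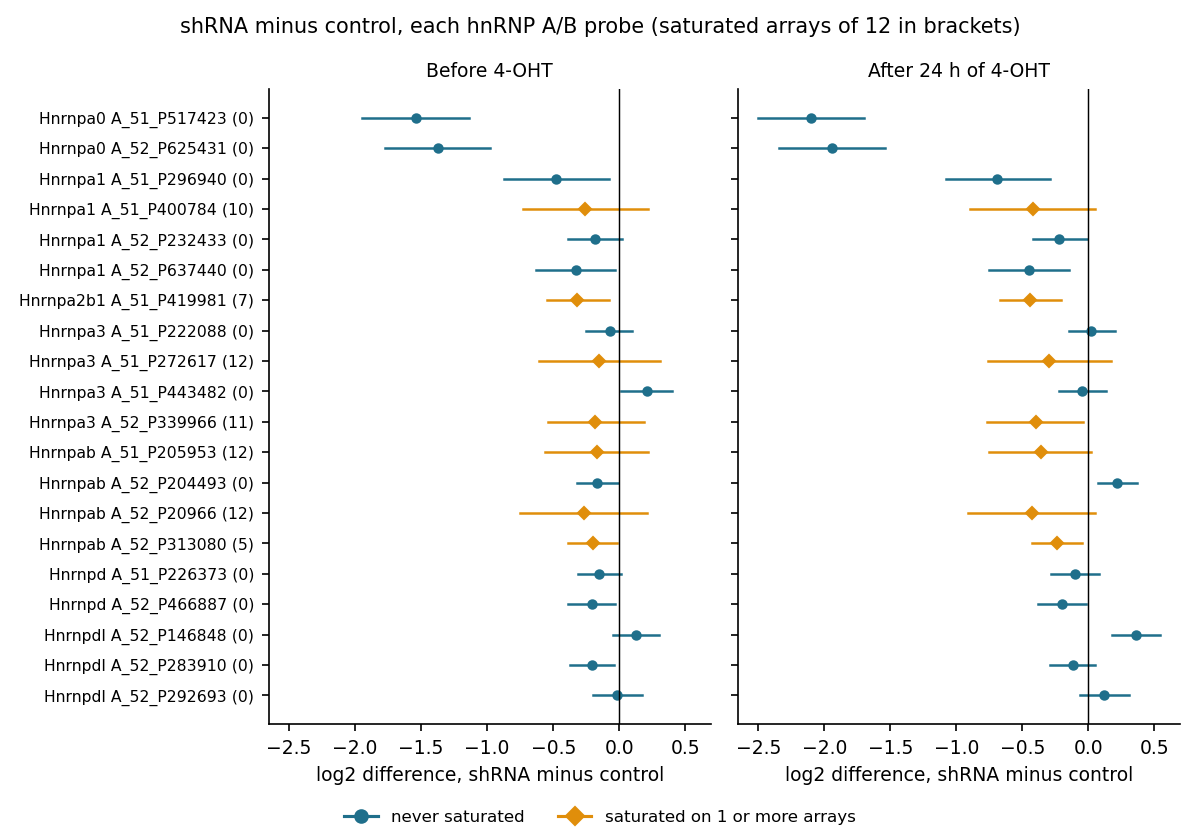
Log2 difference, shRNA minus control, of each tested hnRNP A/B probe before and after 4-OHT, with the 95% interval of the limma fit (n = 3 arrays a group); numbers in brackets count saturated arrays of 12. The Hnrnpa0 probes lie at -1.54 and -1.37 before and at -2.10 and -1.94 after 4-OHT, and every paralogue probe lies between -0.69 and 0.36, where a probe with 12 saturated arrays shows no measured difference.

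Hnrnpa1, the best known core hnRNP protein, was lower in shRNA cells on 2 of its 3 never-saturated probes after 4-OHT. Probe A_51_P296940 read -1.35, -1.31 and -1.50 in shRNA cells after 4-OHT, against -0.48, -0.85 and -0.76 in control cells. The groups did not overlap, the difference was -0.69 (SE 0.18), and the adjusted p in limma was 0.0297. Before 4-OHT it read -0.33, -0.50 and -1.10 in shRNA cells, against -0.16, -0.26 and -0.07 in control cells, a difference of -0.48 that did not pass (adjusted p = 0.153). Replicate C of the shRNA cells, on slide 3, was again the lowest of its group, and among control cells after 4-OHT replicate A, on slide 1, was the highest. Replicate C of the shRNA cells was also the lowest after 4-OHT, with every array of that group on slide 3.

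The second Hnrnpa1 probe, A_52_P637440, read 2.01, 1.97 and 1.76 in shRNA cells after 4-OHT, against 2.60, 2.26 and 2.23 in control cells. Its difference was -0.45 after 4-OHT (adjusted p = 0.0466 in limma) and -0.33 before it (adjusted p = 0.182). Control replicate A after 4-OHT and shRNA replicate C before it stood apart on this probe too. The probe placed on chromosome 9, A_52_P232433, had differences of -0.18 and -0.22 that did not pass, where the spots of control replicate B before and control replicate A after 4-OHT were marked as outliers and left out of the fit. The call after 4-OHT on A_51_P296940 was lost with scaling to the array median (adjusted p = 0.0709) and with normexp background correction (adjusted p = 0.0502), and that on A_52_P637440 under these and under quantile normalization (adjusted p = 0.0508). With normexp, the median of all probes after 4-OHT was itself at -0.13.

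Hnrnpdl, a relative of Hnrnpd whose own pre-mRNA is known to be spliced in several ways, was the 1 paralogue with a higher call. Probe A_52_P146848 read 0.54, 0.65 and 0.69 in shRNA cells after 4-OHT, against 0.21, 0.26 and 0.31 in control cells. The groups did not overlap, and the difference was 0.36 (SE 0.08, adjusted p = 0.0204 in limma). It stayed between 0.36 and 0.43 and passed under quantile normalization, normexp and median scaling. Before 4-OHT the difference was 0.13 (adjusted p = 0.373), with 0.07, 0.25 and 0.26 in shRNA cells and -0.05, 0.12 and 0.14 in control cells.

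The other probes of Hnrnpdl did not follow it. A_52_P283910 had a difference of -0.12 after 4-OHT (adjusted p = 0.275 in limma) and, averaged over both times, was lower by a difference of -0.16 (adjusted p = 0.0417). A_52_P292693, over the RNP1 codons printed above, differed by -0.02 before and 0.12 after 4-OHT, and its groups overlapped at both times. The 95% interval after 4-OHT ran from 0.18 to 0.54 on A_52_P146848 and from -0.29 to 0.05 on A_52_P283910.

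**Figure D3:**
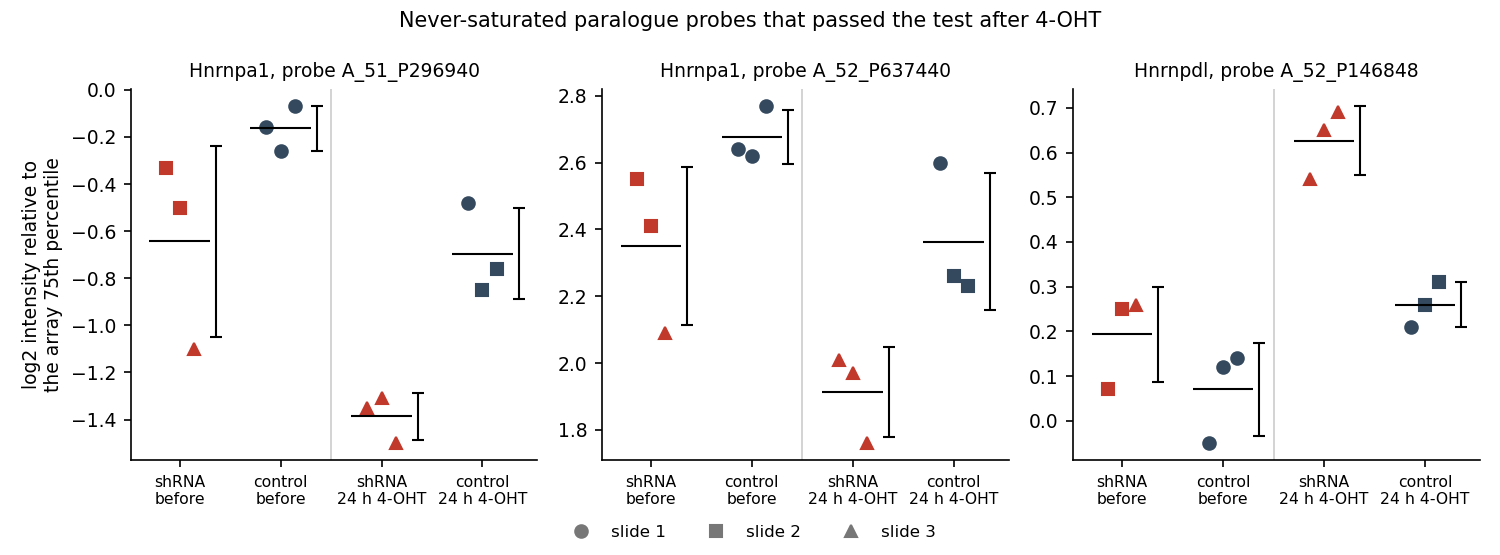
Log2 level on each array of the 3 never-saturated paralogue probes that passed the test after 4-OHT, 2 of Hnrnpa1 and 1 of Hnrnpdl, drawn as for Hnrnpa0 with marker shapes for the slide. Among the Hnrnpa1 values of a group that spans slides, the array on the later slide is lower each time, and on Hnrnpdl the 3 shRNA arrays after 4-OHT (0.54 to 0.69) lie above all others.

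Hnrnpa2b1 gave a lower call on a probe that was saturated in part. A_51_P419981 read 4.74, 4.62 and 4.84 in shRNA cells after 4-OHT, against 5.26, 5.25 and 5.01 in control cells, with 2 of 3 arrays saturated in either group. The difference was -0.44 (adjusted p = 0.0243 in limma), and it was -0.09 under quantile normalization (adjusted p = 0.41). Its never-saturated probe A_52_P636482 read 4.59, 4.52 and 4.54 in shRNA cells after 4-OHT, against 4.97, 4.73 and 4.78 in control cells. Those groups did not overlap, but with 1 usable array in control cells and 2 in shRNA cells before 4-OHT this probe had no test.

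Hnrnpa3, Hnrnpab and Hnrnpd had no call before or after 4-OHT. The never-saturated Hnrnpa3 probe A_51_P222088 read 1.60, 1.60 and 1.61 in shRNA cells after 4-OHT, against 1.67, 1.54 and 1.53 in control cells, and its 95% interval ran from -0.15 to 0.20. The other such probe, A_51_P443482, differed by 0.21 before 4-OHT (adjusted p = 0.194 in limma, with shRNA replicate C left out as an outlier spot) and by -0.05 after it. Hnrnpd differed by -0.15 and -0.21 before 4-OHT and by -0.10 and -0.20 after it on its probes A_51_P226373 (without control replicate A after 4-OHT, an outlier spot) and A_52_P466887. Averaged over both times, A_52_P466887 passed as lower (-0.21, adjusted p = 0.0229).

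Of the 4 Hnrnpab probes, 2 were saturated on all 12 arrays. The never-saturated A_52_P204493 read -2.77, -2.80 and -2.65 in shRNA cells after 4-OHT, against -2.92, -3.06 and -2.90 in control cells, a difference of 0.22 (adjusted p = 0.0531 in limma). It passed as higher under quantile normalization (0.25, adjusted p = 0.0462), and its sign turned to -0.12 with normexp (adjusted p = 0.497). Probe A_52_P313080, saturated on 5 arrays, passed as lower on average (-0.22, adjusted p = 0.0219), and its difference after 4-OHT was -0.24, against 0.09 under quantile normalization. After 4-OHT 2 of 3 shRNA arrays were saturated on it and 0 of 3 control arrays. Saturation may thus have held the shRNA level down, and the sign of this difference is not secured.

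With slide as a fixed block, no paralogue call remained. In that fit 0 of 18 paralogue probes passed in either direction at either time or on average. Outlier spots on A_52_P232433, A_51_P226373 and A_51_P443482 removed the only array that linked a group to the other slides. The fit cannot give their averaged difference, so counts and medians over probes are given only without the block. Without it, the averaged difference was below 0 for 14 of 18. With the block it was 0.10 for each of the Hnrnpa1 probes A_51_P296940 and A_52_P637440, against -0.58 and -0.39 without it. It was 0.12 for A_52_P146848 of Hnrnpdl, against 0.24. Of the 11 never-saturated paralogue probes, 4 had an averaged difference above 0 without the block, and their median was -0.12. The block widened the intervals of the Hnrnpa0 probes, which reached from -1.80 to -0.88 with it and from -2.11 to -1.38 without it. The averaged difference of A_51_P517423 of Hnrnpa0 was -1.38 with the block (adjusted p = 0.125 in limma), against -1.82 without it. Slide and vector shared no level within a treatment, and their parts in the paralogue differences cannot be told apart.

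**Figure D4:**
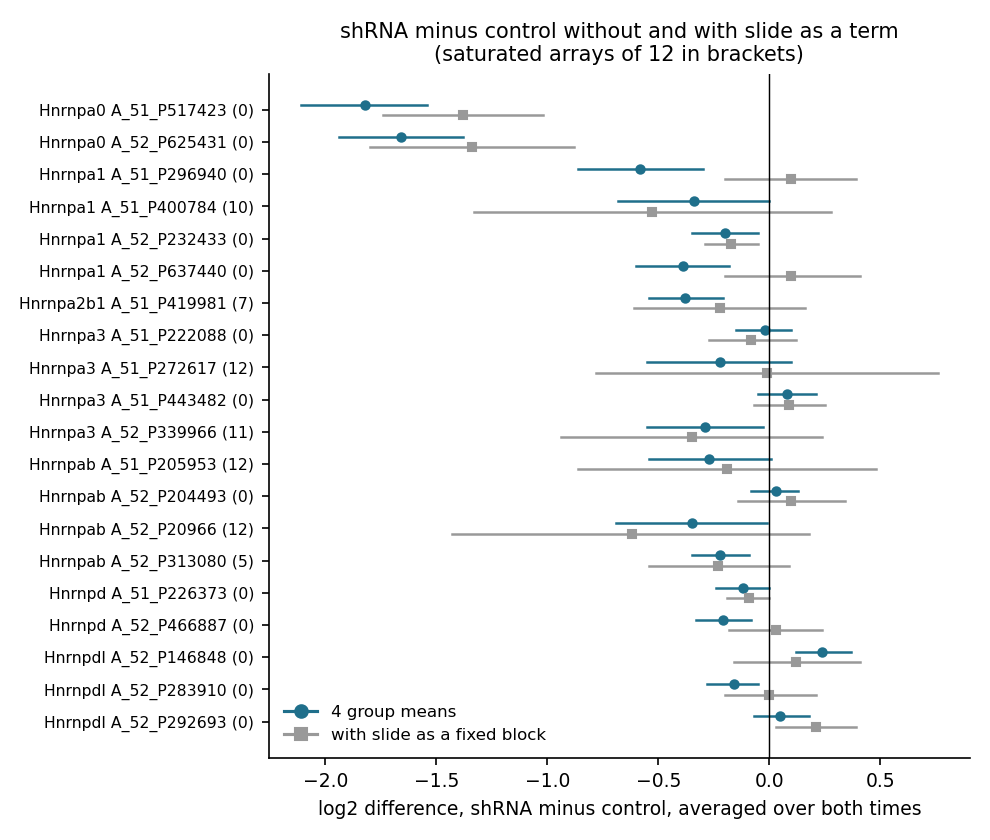
Log2 difference, shRNA minus control, averaged over both times, of each tested hnRNP A/B probe without slide (circles) and with slide as a fixed block (squares), with 95% intervals. Both Hnrnpa0 probes stay below -0.88 over the whole interval, and the Hnrnpa1 probes A_51_P296940 and A_52_P637440 move to 0.10. The squares of A_52_P232433, A_51_P226373 and A_51_P443482 are not slide-adjusted differences, since outlier spots left a group of each unlinked to the other slides.

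The 4-OHT response could be read partly within slides, and here several members fell in both vectors. In shRNA cells 10 of the 20 family probes were lower after than before 4-OHT and 1 was higher, where limma called 37.2% of all probes, 20.6% lower and 16.6% higher. In control cells 6 were lower and 0 higher, where 39.7% of all probes were called, 22.1% lower and 17.6% higher. At an unadjusted p under 0.05 in limma, 2 paralogue probes were higher and 8 lower in control cells, where 4654 and 5921 of all 22364 probes were. The arrays after and before 4-OHT did not overlap for 9 lower and 1 higher of the 18 paralogue probes in shRNA cells, against 28.3% and 22.4% of all probes, and for 8 lower and 2 higher in control cells, against 28.3% and 22.3%. The median response of the 18 paralogue probes was -0.34 in shRNA cells, where all probes had -0.061, and -0.21 in control cells, where all probes had -0.055.

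Hnrnpd, the AU-rich element binding protein AUF1, fell on both of its probes in both vectors. Probe A_52_P466887 read 3.46, 3.43 and 3.39 in shRNA cells after 4-OHT, against 4.02, 3.99 and 3.87 before it. In control cells it read 3.78, 3.59 and 3.52 after 4-OHT, against 4.24, 4.09 and 4.19 before it. The arrays after and before 4-OHT did not overlap in either vector. The responses were -0.53 (adjusted p = 0.000448 in limma) in shRNA cells and -0.54 (adjusted p = 0.000364) in control cells. With slide as a fixed block they were -0.44 and -0.39 and still passed (adjusted p = 0.0043 and 0.00697). The second Hnrnpd probe fell by 0.32 in shRNA cells and by 0.37 in control cells on the log2 scale.

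Hnrnpa3 fell on 1 of its 2 never-saturated probes. A_51_P222088 read 1.60, 1.60 and 1.61 in shRNA cells after 4-OHT, against 1.87, 1.97 and 2.14 before it, a response of -0.39 (adjusted p = 0.00259 in limma). In control cells it read 1.67, 1.54 and 1.53 after 4-OHT, against 2.01, 2.06 and 2.13 before it, a response of -0.49 (adjusted p = 0.000565). With the slide block the responses were -0.53 and -0.40 and both passed. On A_51_P443482 the response was -0.05 in shRNA cells and 0.20 in control cells (adjusted p = 0.0682), so that probes of this gene disagreed.

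The dimmest Hnrnpab probe fell in both vectors. A_52_P204493 read -2.77, -2.80 and -2.65 in shRNA cells after 4-OHT, against -2.37, -2.36 and -2.40 before it, a response of -0.36 (adjusted p = 0.00197 in limma). In control cells it read -2.92, -3.06 and -2.90 after 4-OHT, against -2.15, -2.27 and -2.21 before it, a response of -0.75 (adjusted p = 1.03e-05). With the slide block these were -0.34 and -0.70, and both passed. With normexp the response in control cells was -0.45 (adjusted p = 0.0135). The saturated-in-part Hnrnpab probe A_52_P313080 was called lower in shRNA cells at -0.26 (adjusted p = 0.0329), and under quantile normalization its response there was 0.05. In those cells it was saturated on 2 arrays after 4-OHT and on 1 before it.

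Probes of Hnrnpa1 and of Hnrnpa0 differed in whether their response passed with slide in the fit. On the Hnrnpa1 probe A_51_P296940 the response was -0.74 in shRNA cells and -0.53 in control cells (adjusted p = 0.00746 and 0.035 in limma), and with the slide block -0.29 and -0.31 (adjusted p = 0.105 and 0.0706). A_52_P232433 is the probe placed on chromosome 9, with 2 outlier control spots left out. Its response was -0.34 in shRNA cells and -0.30 in control cells (adjusted p = 0.0111 and 0.0393). With the slide block its response in shRNA cells was -0.21 and passed (adjusted p = 0.0187). On slide 1 the treated control spot was an outlier, which left only untreated control arrays there. The blocked fit therefore cannot give a control response for this probe. The Hnrnpa0 probe A_51_P517423 had a response of -0.95 in shRNA cells (adjusted p = 0.00203) and of -0.39 in control cells (adjusted p = 0.113). With the slide block it was -0.45 in shRNA cells and -0.45 in control cells, and both passed (adjusted p = 0.0431 and 0.0374). The other Hnrnpa0 probe, A_52_P625431, had a response of -0.86 in shRNA cells (adjusted p = 0.00337) and of -0.29 in control cells (adjusted p = 0.23), and with the slide block of -0.44 and -0.40, where neither passed (adjusted p = 0.107 and 0.119). Within slides the response of A_51_P517423 was -0.45 among the shRNA arrays of slide 3 and -0.45 among the control arrays of slide 1 (adjusted p = 0.0828 and 0.0534, each with a single array in 1 of the times).

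Hnrnpdl gave the 1 higher call. A_52_P146848 read 0.54, 0.65 and 0.69 in shRNA cells after 4-OHT, against 0.07, 0.25 and 0.26 before it, a rise of 0.43 (adjusted p = 0.00175 in limma). In control cells it read 0.21, 0.26 and 0.31 after 4-OHT, against -0.05, 0.12 and 0.14 before it, a response of 0.19 (adjusted p = 0.0819). The other probes of the gene had responses between -0.11 and 0.04, and none passed.

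**Figure D5:**
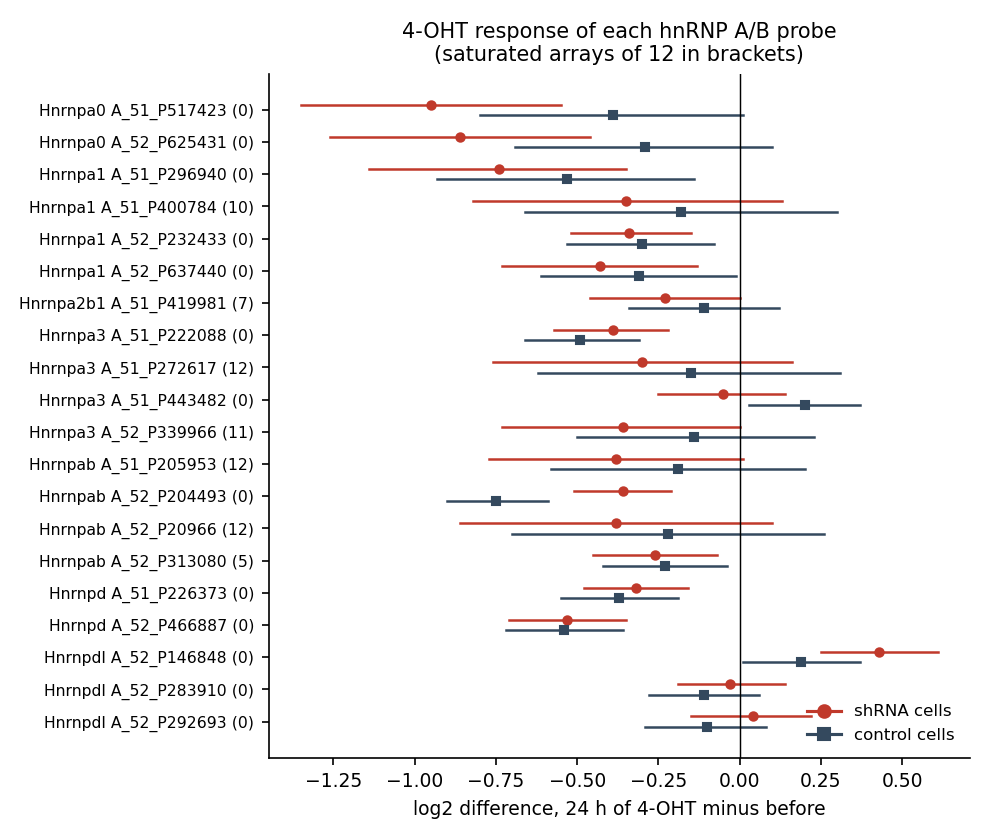
Log2 difference, 24 h of 4-OHT minus before, of each tested hnRNP A/B probe in shRNA cells (circles) and control cells (squares), with 95% intervals of the limma fit; numbers in brackets count saturated arrays of 12. Hnrnpd lies between -0.54 and -0.32 in both vectors, and A_52_P146848 of Hnrnpdl lies above 0 in both.

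The difference between the vectors in the 4-OHT response was tested as an interaction, and 0 of 20 family probes passed in limma, against 1 of all 22364 probes (0.00447%). At an unadjusted p under 0.05 in limma, 1 family probe was higher and 1 lower, where 504 and 642 of all 22364 probes were. The interaction was 0.38 for A_52_P204493 of Hnrnpab (adjusted p = 0.753) and -0.55 and -0.57 for the Hnrnpa0 probes (adjusted p = 0.955). With the slide block the Hnrnpa0 interactions were 0.00 and -0.03.

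Transcripts whose pattern was most like that of Hnrnpa0 were sought among the 21550 tested probes with a value on every array, by Pearson r with A_51_P517423 over the 12 arrays, which share the slides and the groups. The 5 highest, at 1 probe a gene, were Shc1 (r = 0.988), an adaptor of receptor tyrosine kinases, Mdm2 (0.974), the ubiquitin ligase of p53, the kinase gene Taok1 (0.972), Abi1 (0.972), an adaptor of actin assembly, and Prrg2 (0.971). Shc1 differed between shRNA and control cells by -0.53 before and -0.57 after 4-OHT, and Taok1 by -0.72 and -0.97. Among the paralogues, r was 0.86 and 0.85 for the Hnrnpa1 probes A_51_P296940 and A_52_P637440, 0.88 for the partly saturated Hnrnpa2b1 probe, and 0.23 for A_52_P204493 of Hnrnpab. On the Hnrnpdl probes it was -0.82 for A_52_P146848, 0.76 for A_52_P283910 and -0.30 for A_52_P292693.

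Wider lists of RNA-binding genes, each gene on its brightest tested probe, were also compared between the vectors. Among 15062 genes, 0.139% were higher and 0.219% lower before 4-OHT, and 7.7% and 8.65% after it. Of 24 other hnRNP genes 21 were measured. None of them passed before 4-OHT in limma, and after it 0 were higher and 2 lower, among them Hnrnph1 (-0.30, adjusted p = 0.0375), a regulator of exon inclusion. Their median difference after 4-OHT was -0.20, where all genes had -0.04. Several of these hnRNP genes were read on a probe saturated on all 12 arrays. Their differences count in this median but are not measured changes. Of 10 SR protein genes, whose products act on splice sites often in opposition to hnRNP A proteins, 9 were measured. After 4-OHT, Srsf5 (-0.87, adjusted p = 0.0161) and Srsf10 (-0.32, adjusted p = 0.0383) were lower and Srsf11 (0.27, adjusted p = 0.0428) was higher. None of the 4 A/B-related genes Dazap1, Msi1, Msi2 and Tardbp passed at either time.

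Genes that act on hnRNP A proteins or that hnRNP A0 is known to bind were also read. Of 6 genes for import and modification 5 were measured, and 2 were higher after 4-OHT: Mapkapk2, which encodes the kinase MK2 (0.37, adjusted p = 0.0223 in limma), and the arginine methyltransferase gene Prmt5 (0.36, adjusted p = 0.0275). Averaged over both times 3 of the 5 were higher (Mapkapk2, 0.31, Prmt5, 0.31, and Tnpo2, 0.23), and 2 were lower: the import receptor gene Tnpo1 (-0.28, adjusted p = 0.0178 in limma) and the p38 kinase gene Mapk14 (-0.20, adjusted p = 0.00685). Of all 15062 genes, 12.3% were higher and 15.5% lower on average. Of the 5 mRNAs on the list of hnRNP A0 targets, 4 were measured, and none passed between the vectors before or after 4-OHT; averaged over both times Gadd45a was lower in shRNA cells (-0.37, adjusted p = 0.0191). With slide as a fixed block 0 of 22364 probes passed on average, these included. In shRNA cells the log2 response to 4-OHT was 2.65 for Tnf and 0.78 for Cxcl2, both inflammatory cytokines, and -1.93 for Gadd45a, a stress and growth arrest gene. In control cells the responses were 2.73, 0.91 and -1.83, and all 6 of these passed in limma (adjusted p between 1.75e-09 and 0.00472).

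Of the lists' responses to 4-OHT, other hnRNP genes had 2 higher and 4 lower in shRNA cells and 2 higher and 3 lower in control cells. Taf15, an RNA-binding protein gene, fell in both (-0.50 and -0.42), and Hnrnpul1 rose in both (0.32 and 0.35). Among SR protein genes Srsf5 (-1.16 and -0.90) and Srsf4 (-0.25 and -0.34) fell in both. Msi2, an RNA-binding regulator of blood stem cells, was the 1 of 4 A/B-related genes to pass, with a response of -0.77 in shRNA cells and of -0.50 in control cells (adjusted p = 0.00216 and 0.0218 in limma). Of the import and modification genes 2 were higher and 2 lower in shRNA cells and 1 was higher and 1 lower in control cells, with Tnpo2, a nuclear import receptor, higher in both (0.51 and 0.40) and Mapkapk2 lower in both (-0.58 and -0.69). Across 15062 genes, 16.2% rose and 21.4% fell in shRNA cells, and 17.3% rose and 22.8% fell in control cells.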

How the data were processed

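Per the file headers, the 12 arrays are of design 014868 and were quantified by the authors in Agilent Feature Extraction 9.5.3.1 (9.5 per the submitters' processing notes). What they deposited is the Cy3 intensity of each spot on a linear scale, background-subtracted and with no scaling from array to array; their summary table gives these intensity values to within 0.497%. Spots well above background made up 50.3% to 55.7% of an array, and saturated spots 1.42% to 2.63%.

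From these, log2 intensity minus the 75th percentile of each array was computed without control spots and outlier-marked spots, and spots of a probe were averaged. A probe was tested if well above background on 3 or more arrays and usable on 2 or more in every group (22364 of 41174). limma 3.58.1 in R 4.3.3 (with data.table, version 1.17.8) fitted 4 group means over all 12 arrays, and p-values were adjusted by Benjamini-Hochberg over all probes tested; the threshold was 0.05 and intervals are 95%. The fit was tested on simulated data. Arrays of a group correlated with r between 0.989 and 0.995 across probes, and precision is set by how few arrays a group has. Of 41174 probes, 22951 were named through transcript identifiers, 6659 by current and 3109 by older symbols (mouse gene reference, assembly GRCm38.p6), and 8455 kept the name in the file. Positions are those of the design on build mm7, whose annotation was not used here. The replicate letters were checked as pairs: deviations of same-lettered arrays correlated between -0.06 and 0.29 (median 0.06). Those of arrays with different letters correlated between -0.29 and 0.17 (median -0.03). The labels do not say whether the letters mark pairs, and these weak correlations cannot settle it. The letters were not used as pairs.

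All 21 family probes are reported. Other genes were named by a rule: the 5 most like Hnrnpa0, and up to 2 rises and 2 falls a list among genes past the threshold. One gene of these lists is counted but not reported here by name. Members, lists and tests were chosen with earlier results of these data known. Alternatives were quantile normalization, normexp background correction (offset 50), median scaling, 2 filters on dim probes, outlier spots kept, a single probe for each gene, the authors' summary table, only the arrays compared, slide and replicate blocks, slides taken singly, and each array left out; a fit on never-saturated probes was added after seeing the data. Figures were drawn with Python 3.11.15, pandas 2.3.3 and matplotlib 3.10.9.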

Additional observations from a re-analysis of the deposited data

How the results depend on the processing

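The Hnrnpa0 difference kept its sign in every alternative run. It missed the threshold before 4-OHT when only the arrays compared were fitted (-1.54), and with slide as a fixed (-1.38 before, -1.38 after, -1.38 averaged) or random block (-1.57 before, -1.82 after). With each array left out it ranged from -1.76 to -1.30 before, -2.15 to -2.05 after and -1.93 to -1.70 averaged; without control replicates B or C or shRNA replicate B before 4-OHT, the difference before 4-OHT missed the threshold. The cause of these losses was not tested.

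Paralogue probes higher after 4-OHT numbered 1, against 2 under quantile normalization, well above background on all arrays, the deposited table, the replicate block and never-saturated probes, and 0 without the filter on dim probes, at 1 probe a gene and with either slide block. The additional probe was A_52_P204493 of Hnrnpab under quantile normalization (0.25, adjusted p = 0.0462) and with the replicate block (0.22, adjusted p = 0.0495). Those lower after 4-OHT numbered 3, against 1 under quantile normalization, at 1 probe a gene and with only the arrays compared, and 0 with normexp, median scaling, no filter or either slide block. On average 1 was higher, against 0 at 1 probe a gene and with either slide block; 7 were lower, against 4 under quantile normalization and without the filter, 3 at 1 probe a gene, 2 with median scaling, 1 with normexp and 0 with either slide block. With an array left out, counts after 4-OHT ranged from 0 to 1 higher and 0 to 3 lower, and averaged from 1 to 1 higher and 3 to 6 lower. The averaged count of lower probes was 3 without control replicate C before 4-OHT, and 4 without shRNA replicate C before it or without control or shRNA replicate B after it. Without any 1 of control replicates A and B or shRNA replicates B and C after 4-OHT, both counts after 4-OHT were 0.

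Family probes lower after 4-OHT in control cells numbered 6, against 3 with normexp, 1 at 1 probe a gene, 1 within slide 1 and 4 to 9 with an array left out; those higher numbered 0, against 1 under quantile normalization and 1 with the replicate block. In shRNA cells 10 were lower, against 6 with normexp, median scaling and the fixed slide block, 2 at 1 probe a gene, 1 within slide 3 and 8 to 11 with an array left out; 1 was higher, against 0 at 1 probe a gene and 0 within slide 3. Where a gene is read on its brightest tested or never-saturated probe, the averaged differences turned with the fixed slide block to 0.03 (Hnrnpd) and 0.00 (Hnrnpdl), and that of Hnrnpab after 4-OHT to 0.22 on never-saturated probes. The replicate block changed no other family count by over 1.5 times, and the labels do not say whether the letters pair the samples. Saturation limits 7 of the 21 probes.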

Other observations

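Loci that the array annotates as similar to family members had probes of their own. LOC544954 and LOC545091, annotated as similar to Hnrnpa1, were lower in shRNA than in control cells after 4-OHT, with differences of -0.54 and -0.57 (adjusted p = 0.0303 and 0.0283 in limma), and differed by -0.38 and -0.45 before it without passing (adjusted p = 0.152 and 0.116). LOC674254, annotated as similar to Hnrnpa3 and sharing 19 bases with A_51_P443482, differed by -0.04 after and 0.16 before 4-OHT and did not pass. Its response to 4-OHT was 0.10 in shRNA cells and 0.31 in control cells, and that in control cells passed (adjusted p = 0.0173). The probe pair of LOC237030 was well above background on no array.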
